A study of Arabidopsis thaliana with 12 samples.

Results

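The genes described here are the root transcripts that were higher in bpc than in wild type both without and with cytokinin. Of 33602 genes in the deposited RPKM table (reads scaled by gene length and library total), 61 (0.182%) met 3 conditions in each treatment. The mean of log2(RPKM + 0.5) was at least 0.8 higher in bpc, the 3 bpc values lay above the 3 wild-type values, and the bpc mean was at least 2 RPKM. Of these, 6 were left out by name because they belong to the cold, abscisic acid (ABA) and heat-shock programmes or are the malic enzyme gene NADP-ME1, which left 55 members. The members were chosen by the measured differences between bpc and wild type, so these are given below as descriptions with no test. The difference between treated and untreated roots was not used in the choice and was tested. That test is not free of the choice, because both used the same libraries. Genotypes that do not overlap are more likely where the spread within groups is small, and that spread enters the test.

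All material was whole roots of Arabidopsis thaliana seedlings that were 10 days old and grown in constant light. Wild type (WT) was the accession Col-0, and bpc was the loss-of-function mutant bpc1,2,3,4,6, for which the labels name no single alleles. For 1 h, 12 seedlings per set floated in shaken medium holding either 5 µM of the synthetic cytokinin benzyladenine (BA) or the vehicle, NaOH, added as 0.01% of a 5 N stock. The roots were then cut off whole, and each of the 4 groups (WT NaOH, WT BA, bpc NaOH and bpc BA) has 3 libraries. Nothing in the labels states that libraries of 1 group came from separate growths; the spread behind the p-values may therefore be technical. In whole roots, more cells of a type and more RNA per cell cannot be told apart.

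BASIC PENTACYSTEINE (BPC) proteins are plant transcription factors that bind runs of alternating G and A bases in promoters. Several have been linked to Polycomb complexes, which keep developmental regulators silent outside their own organ, and homeotic genes of the flower and KNOX homeobox genes are among the targets studied. Cytokinin acts through a phosphorelay that ends in type-B response regulators, which switch on the type-A response regulators within minutes.

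The summed level of the 7 BPC genes was 85.8 to 89.7 RPKM in WT NaOH and 24.9 to 30.9 RPKM in bpc NaOH. BPC3, which the mutant's name includes, was higher in bpc with NaOH (1.38 RPKM in WT and 3.16 RPKM in bpc, log2 0.95, adjusted p 0.031 in limma). BPC4 was lower (23.4 and 16.3 RPKM, log2 −0.50, adjusted p 0.046) and made up most of what was left in bpc. Read divisors implied by the steps of the RPKM values ran from 9427912 to 13951019 reads per library. That of WT BA replicate 1 was identical to that of WT NaOH replicate 2, and the length-weighted RPKM sum of WT BA replicate 1 reached 86.5% of the median, where every other library lay between 99.8% and 100.2%. With its own total in place of the shared one, 48 of the 55 members met the conditions. Both NaOH libraries numbered 3 stood apart in the most abundant transcript, AT1G21310, which had 17672 RPKM in WT NaOH replicate 3 and 22185 RPKM in bpc NaOH replicate 3 against 5452 to 8571 RPKM in the others. Of the 55 members, 32 had the highest value of their group in bpc NaOH replicate 3, and 17 were there at least 0.5 above the mean of replicates 1 and 2 on the log2 scale. Without that library 51 genes met the conditions, 43 of them members; the 12 members lost include PI, ERF2, PMAT2 and ST2A. Root marker genes were present. Of 41 markers of root hairs, endodermis, xylem, phloem, root cap and shoot photosynthesis, 39 were tested between bpc and WT in limma. At adjusted p 0.05, 1 was called with NaOH (CESA7, lower) and 1 with BA (CASP5, higher), and 6 had an unadjusted p under 0.05 in each treatment. The summed level of the 10 photosynthesis markers, which would follow carried-over shoot tissue, was 195 to 248 RPKM in WT NaOH and 179 to 209 RPKM in bpc NaOH.

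The 55 members cover a range of levels but a narrow range of differences. Their mean over the 6 bpc libraries ran from 2.11 to 412 RPKM with a median of 9.50 RPKM, against 10.9 RPKM for the 20776 genes tested. Their mean over the 6 WT libraries ran from 0.568 to 203 RPKM with a median of 3.25 RPKM. The log2 difference between bpc and WT ran from 0.81 to 2.34 with NaOH and from 0.81 to 2.01 with BA, with medians of 1.06 in each treatment. The difference was at least 1 (a doubling) in both treatments for 31 members. In 44 members all 6 bpc values lay above all 6 WT values, whatever the treatment, a pattern seen in 2.7% of all genes tested and one that the conditions favour. All 55 passed the filter on low values used for the tests, which the bpc minimum makes nearly certain. Counted reads, recovered from the RPKM steps as whole numbers within 0.001 read for all 55, went down to 2 reads in a WT library and 6 in a bpc library, and 11 members had under 10 reads in at least 1 WT library. In the authors' deposited table of bpc against WT with NaOH, all 55 members were higher at a false discovery rate under 0.05, with log2 fold changes of 0.77 to 2.49, and none lower, against 6.38% higher and 6.75% lower among its 19706 genes. That table rests on libraries the conditions used, so nothing is read from the agreement.

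**Figure D1:**
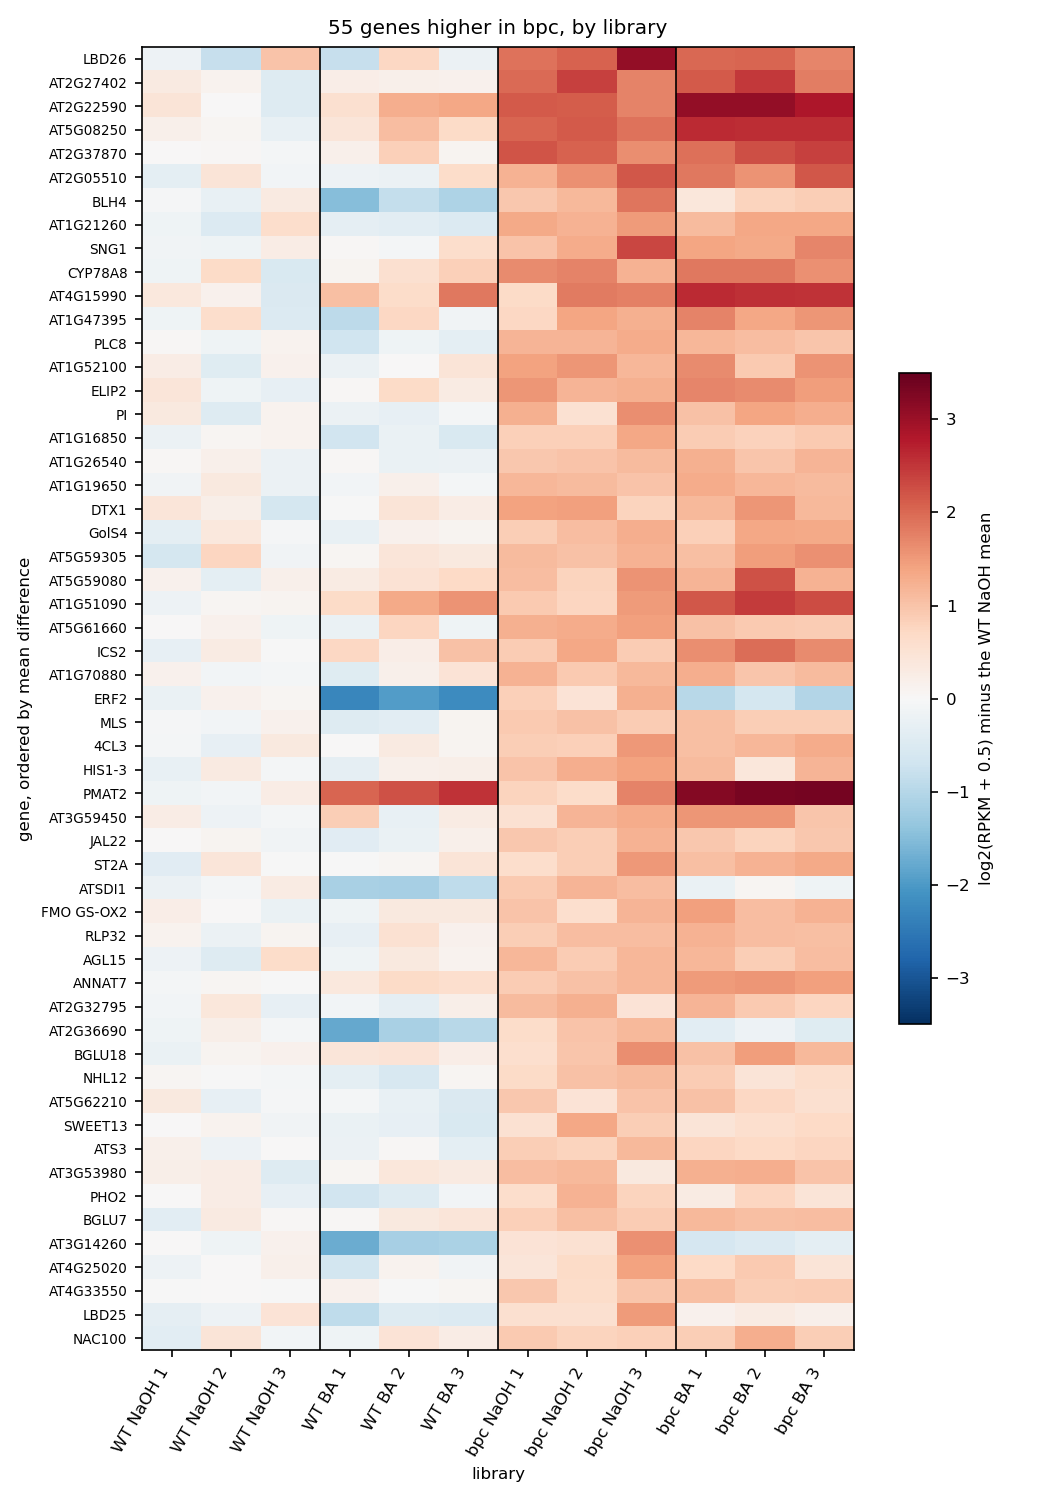
Level of each of the 55 members (rows, ordered by mean difference) in each of the 12 libraries (columns), as log2(RPKM + 0.5) minus the mean of the 3 WT NaOH libraries; red is higher and blue lower. The bpc columns are redder than the WT columns within each treatment for every row, as the choice of members requires, and ERF2, PMAT2, ATSDI1, AT2G36690 and AT3G14260 also change colour between NaOH and BA.

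**Figure D2:**
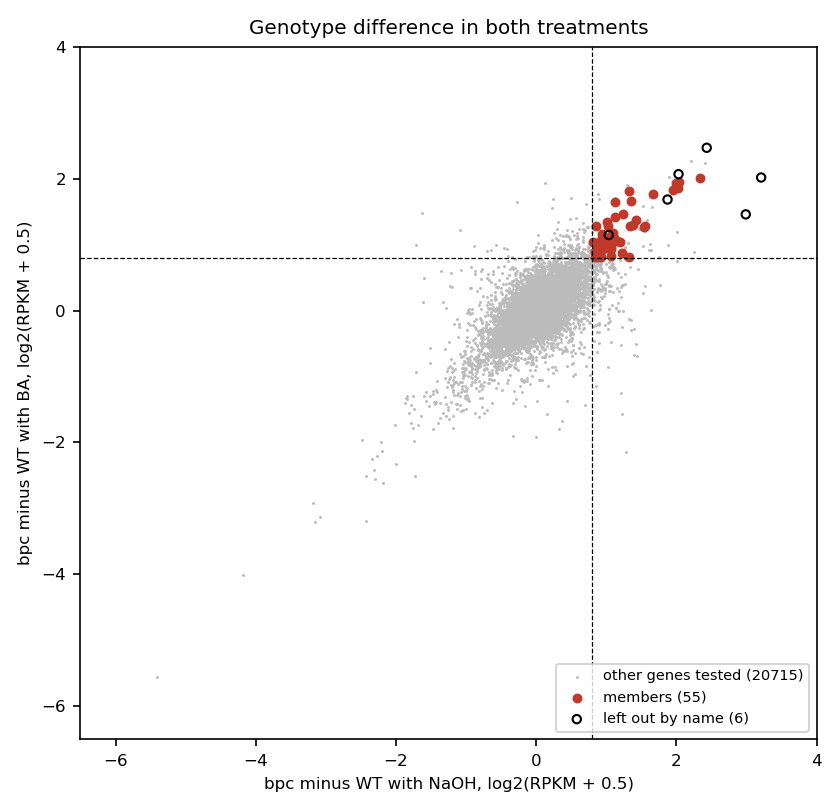
Log2 difference between bpc and WT with NaOH (x axis) and with BA (y axis) on the log2(RPKM + 0.5) scale for the 20776 genes tested, with the 55 members in red, the 6 genes left out by name as open circles and dashed lines at 0.8. Members fill the corner above both lines up to 2.34 and 2.01; grey genes in that corner failed another condition.

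Transcription factors made up 7 of the 55 members (12.7%), against 4.72% of the genes tested by the same words in the RefSeq product. The words LOB domain, AGAMOUS and binding factor were added after the values were seen. LBD26, LBD25, AGL15 and ERF2 were matched only by these added words, so the larger share is not read as a result. The 7 are 2 LOB-domain genes (LBD26 and LBD25), the homeobox gene BLH4, the MADS-box genes PISTILLATA (PI) and AGL15, the ethylene response factor ERF2 and the NAC gene NAC100. Their log2 differences had medians of 1.06 with NaOH and 1.28 with BA. BPC proteins bind GA runs, and the windows before the starts of 2 of the 7, PI and ERF2, hold one. GA runs are common: 28.8% of all tested genes with a promoter hold GAGAGA in a window that adds the 50 bases after the start. The windows of PI and ERF2 are shown with those of LBD26 and BLH4, as examples of the 5 that hold none. Each is the 250 bases before the annotated start, read 5′ to 3′ on the gene's strand from the RefSeq TAIR10.1 genome, with matches to GAGAGA or its complement in capitals. The windows are chr5:6828654-6828903 (plus strand) for PI, chr5:19172957-19173206 (minus strand) for ERF2, chr3:10373001-10373250 (plus strand) for LBD26 and chr2:10113328-10113577 (minus strand) for BLH4.
PI: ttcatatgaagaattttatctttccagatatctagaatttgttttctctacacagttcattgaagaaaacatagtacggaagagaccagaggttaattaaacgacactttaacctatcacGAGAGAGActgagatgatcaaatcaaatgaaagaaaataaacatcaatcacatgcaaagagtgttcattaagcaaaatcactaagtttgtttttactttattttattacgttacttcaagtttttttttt
ERF2: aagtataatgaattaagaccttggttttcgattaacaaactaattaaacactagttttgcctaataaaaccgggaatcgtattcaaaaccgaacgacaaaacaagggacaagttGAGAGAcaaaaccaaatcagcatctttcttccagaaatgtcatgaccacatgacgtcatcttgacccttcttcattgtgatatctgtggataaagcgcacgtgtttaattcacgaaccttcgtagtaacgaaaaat
LBD26: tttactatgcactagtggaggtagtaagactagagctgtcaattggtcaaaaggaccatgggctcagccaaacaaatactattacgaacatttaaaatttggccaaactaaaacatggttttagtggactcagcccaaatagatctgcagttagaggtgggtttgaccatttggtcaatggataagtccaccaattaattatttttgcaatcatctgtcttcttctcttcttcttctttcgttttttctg
BLH4: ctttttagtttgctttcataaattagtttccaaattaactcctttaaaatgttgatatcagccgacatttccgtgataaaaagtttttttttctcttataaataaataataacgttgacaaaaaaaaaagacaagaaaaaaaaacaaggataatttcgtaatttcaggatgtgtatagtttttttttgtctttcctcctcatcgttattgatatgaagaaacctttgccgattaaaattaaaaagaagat
In PI the run begins 130 bases before the start and spans GAGAGAGA, and in ERF2 it begins 136 bases before the start. ERF2 also holds a G-box, CACGTG, 39 bases before the start.

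LBD26 (AT3G27940; chromosome 3, 10373251 to 10376480, plus strand), a member of the plant-specific LOB-domain family, had 0.969, 0.464 and 2.82 RPKM in WT NaOH, 0.464, 2.29 and 0.954 in WT BA, 5.7, 6.44 and 13.8 in bpc NaOH, and 6.25, 6.42 and 5.02 in bpc BA. Every bpc library was above every WT library, and bpc NaOH replicate 3 was the highest of all. The log2 difference was 2.34 with NaOH and 2.01 with BA, the largest mean difference of the members. BLH4 (AT2G23760; chromosome 2, 10107707 to 10113327, minus strand), a BEL1-like homeodomain protein of a class that pairs with KNOX proteins, had 2.57, 2.16 and 3.44 RPKM in WT NaOH, 0.642, 1.27 and 1.01 in WT BA, 5.6, 6.51 and 11.1 in bpc NaOH, and 3.68, 4.97 and 5.26 in bpc BA. Its WT BA values were the lowest, and its log2 differences were 1.32 with NaOH and 1.81 with BA.

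PI (AT5G20240; chromosome 5, 6828904 to 6831515, plus strand) encodes a floral homeotic MADS-box protein that acts with APETALA3 to specify petals and stamens. It had 0.916, 0.313 and 0.726 RPKM in WT NaOH, 0.47, 0.422 and 0.564 in WT BA, 2.14, 1.11 and 2.97 in bpc NaOH, and 1.8, 2.42 and 2.23 in bpc BA. These values rest on 4 to 14 reads in each WT library and 13 to 32 reads in each bpc library. The log2 differences were 1.13 with NaOH and 1.42 with BA, and PI no longer met the conditions without bpc NaOH replicate 3, where it was highest. Its partner AP3 had 0.459 RPKM in WT NaOH and 0.470 RPKM in bpc NaOH. Of 17 regulators linked to BPC proteins in the literature (floral homeotic, KNOX and embryo genes), 6 could be tested, 6 were listed at 0 in all 12 libraries, and PI was the 1 member among them. KNAT1, a KNOX gene of that list, went the other way without passing the test (7.39 and 3.98 RPKM in WT and bpc with NaOH, adjusted p = 0.19 in limma).

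AGL15 (AT5G13790; chromosome 5, 4448862 to 4450958, minus strand), a MADS-box gene known for its accumulation in embryos, had 1.86, 1.43 and 3.62 RPKM in WT NaOH, 1.87, 2.89 and 2.39 in WT BA, 5.45, 4.37 and 5.4 in bpc NaOH, and 5.43, 4.37 and 5.07 in bpc BA. The highest WT value, 3.62 RPKM, lay below the lowest bpc value, 4.37 RPKM, and the log2 differences were 1.06 with NaOH and 0.93 with BA. ERF2 (AT5G47220; chromosome 5, 19171643 to 19172956, minus strand), an activator of defence genes that respond to ethylene and jasmonate, had 10.4, 13.9 and 13 RPKM in WT NaOH, 2.14, 2.81 and 2.29 in WT BA, 22.5, 17.3 and 29.7 in bpc NaOH, and 6.06, 7.89 and 5.84 in bpc BA. In each treatment bpc was above WT, but the bpc BA values lay below the WT NaOH values. Its log2 differences were 0.85 with NaOH and 1.28 with BA.

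LBD25 (AT3G27650; chromosome 3, 10238514 to 10240648, plus strand) had 21, 23.1 and 36.5 RPKM in WT NaOH, 13.7, 19 and 18.7 in WT BA, 38.8, 39 and 73.4 in bpc NaOH, and 28.7, 32 and 29.7 in bpc BA, and bpc NaOH replicate 3 was the highest of all. NAC100 (AT5G61430; chromosome 5, 24701062 to 24702787, minus strand), of the NAC family and a target of a microRNA that controls organ boundaries, had 2.36, 4.58 and 3 RPKM in WT NaOH, 2.83, 4.65 and 3.9 in WT BA, 6.44, 5.9 and 6.07 in bpc NaOH, and 6.19, 8.47 and 6.25 in bpc BA. Both sit at the edge of the conditions with smaller differences of 0.81, and neither met them with WT BA replicate 1 rescaled. LBD25 and LBD26 both lie on chromosome 3 but are 132603 bases and 45 genes apart, and no 2 members are adjacent genes.

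**Figure D3:**
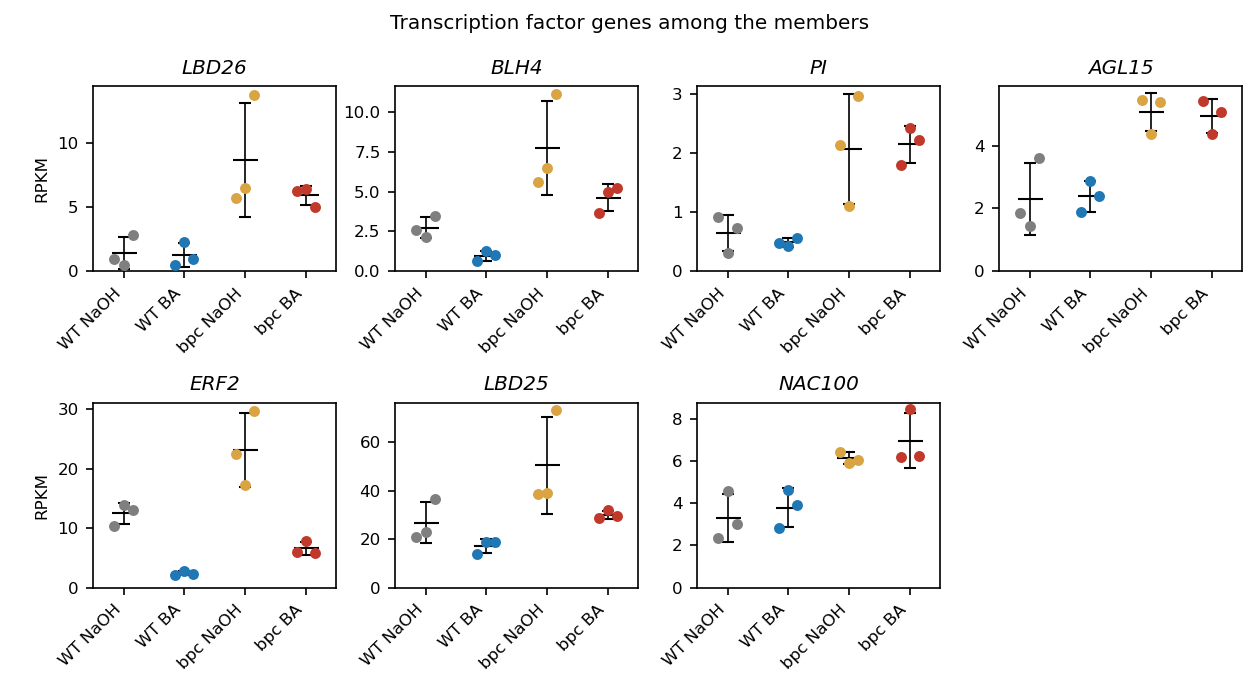
RPKM (y axis, linear from 0, own scale in each panel) of the 7 transcription factor genes in the 4 groups (x axis); points are libraries, ticks are means and bars are SD (n = 3). In each panel the bpc points lie above the WT points of the same treatment. In limma, ERF2 was called lower with BA in both genotypes and BLH4 in WT alone. Means of BLH4 with NaOH and BA were 2.72 and 0.974 RPKM in WT and 7.75 and 4.63 RPKM in bpc. Means of LBD25 were also lower with BA in both genotypes, without a call.

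Genes of chromatin and RNA added 4 members of low level, 2.15 to 5.53 RPKM as means over the bpc libraries. HIS1-3 (AT2G18050; chromosome 2, 7845923 to 7847031, plus strand), a linker histone known to be induced by drought and ABA, had 2.36 ± 0.591 RPKM in WT NaOH, 2.42 ± 0.546 in WT BA, 6.15 ± 0.961 in bpc NaOH and 4.9 ± 1.48 in bpc BA (means ± SD, n = 3, as for the means that follow). AT1G26540, which encodes an Agenet-domain protein of the Tudor superfamily, had 0.893 ± 0.184 RPKM in WT NaOH, 0.761 ± 0.14 in WT BA, 2.31 ± 0.159 in bpc NaOH and 2.57 ± 0.299 in bpc BA. AT4G25020, with a G-patch domain found in RNA-binding proteins, had 1.28 ± 0.207 RPKM in WT NaOH, 1.06 ± 0.401 in WT BA, 2.79 ± 1.22 in bpc NaOH and 2.37 ± 0.482 in bpc BA. AT2G32795, a non-coding RNA in RefSeq, had 0.884 ± 0.364 RPKM in WT NaOH, 0.808 ± 0.243 in WT BA, 2.15 ± 0.683 in bpc NaOH and 2.14 ± 0.417 in bpc BA. Their log2 differences ran from 0.83 to 1.23 with NaOH and from 0.87 to 1.28 with BA.

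Specialised metabolism was the largest group by role, with 12 members and median log2 differences of 1.06 with NaOH and 1.06 with BA. Role groups were drawn up after values were seen and have no share over all genes tested beside them, so the size of this one is not read as a result. Some of its enzymes, such as AT2G22590 and AT5G08250, are named in RefSeq by family alone. Phenylpropanoids, the phenolic products of phenylalanine, are handled by several of the 12. SNG1 (AT2G22990; chromosome 2, 9786087 to 9790335, plus strand), the sinapoyltransferase that makes sinapoylmalate, a UV-absorbing ester, had 0.713, 0.703 and 1.1 RPKM in WT NaOH, 0.853, 0.767 and 1.55 in WT BA, 2.14, 2.79 and 6.25 in bpc NaOH, and 2.96, 2.83 and 3.85 in bpc BA. The bpc NaOH replicate 3 value was more than any other, and the log2 differences were 1.55 with NaOH and 1.28 with BA. 4CL3 (AT1G65060; chromosome 1, 24167202 to 24171635, minus strand), the 4-coumarate:CoA ligase of the flavonoid branch, had 16.4 ± 3.77 RPKM in WT NaOH, 17.9 ± 2.04 in WT BA, 35.1 ± 10.1 in bpc NaOH and 37 ± 3.24 in bpc BA. PMAT2 (AT3G29670; chromosome 3, 11527756 to 11529420, plus strand), a malonyltransferase that acts on phenolic glucosides, had 3.34, 3.54 and 4.64 RPKM in WT NaOH, 17.3, 19.6 and 24.2 in WT BA, 6.84, 6.26 and 13.8 in bpc NaOH, and 39.4, 42.8 and 43.2 in bpc BA. Its level separated all 4 groups: the NaOH values of bpc lay between the NaOH and BA values of WT.

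AT2G22590 (chromosome 2, 9592956 to 9594579, plus strand) encodes a UDP-glycosyltransferase, an enzyme class that attaches sugars to small molecules. It had 1.77, 1.17 and 0.71 RPKM in WT NaOH, 1.95, 3.5 and 3.78 in WT BA, 6.81, 6.68 and 5.02 in bpc NaOH, and 13.6, 13.6 and 11.2 in bpc BA. Every bpc value lay above every WT value, and the log2 differences of 1.99 with NaOH and 1.93 with BA were among the 4 largest. AT5G08250 (chromosome 5, 2653554 to 2655870, minus strand), a cytochrome P450 gene, had 1.52, 1.39 and 0.999 RPKM in WT NaOH, 1.92, 3.27 and 2.37 in WT BA, 6.9, 7.41 and 6.14 in bpc NaOH, and 10.4, 10.2 and 10.3 in bpc BA, with log2 differences of 2.03 with NaOH and 1.87 with BA. CYP78A8 (AT1G01190; chromosome 1, 82984 to 84946, minus strand), of a P450 subfamily tied to organ growth, had 3.74, 6.99 and 2.72 RPKM in WT NaOH, 4.48, 6.38 and 7.85 in WT BA, 14.2, 15 and 10.4 in bpc NaOH, and 16.5, 16.3 and 13.6 in bpc BA. WT and bpc did not overlap in any of these 3 genes.

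Hormone, glucosinolate and other enzymes form the rest of this group. ICS2 (AT1G18870; chromosome 1, 6515373 to 6519395, plus strand), an isochorismate synthase whose product leads to phylloquinone and salicylic acid, had 4.24 ± 0.957 RPKM in WT NaOH, 7.07 ± 2.01 in WT BA, 9.22 ± 1.83 in bpc NaOH and 15.3 ± 2.09 in bpc BA. ST2A (AT5G07010; chromosome 5, 2174668 to 2176446, minus strand), a sulfotransferase of hydroxyjasmonate, had 19.9, 35.5 and 26.2 RPKM in WT NaOH, 26.2, 27.6 and 36.4 in WT BA, 41.1, 48.4 and 77.1 in bpc NaOH, and 55.6, 62.3 and 67.5 in bpc BA. The highest WT value, 36.4 RPKM, lay below the lowest bpc value, 41.1 RPKM. FMO GS-OX2 (AT1G62540), which oxygenates the sulphur of methylthioalkyl glucosinolates, had 2.18 ± 0.412 RPKM in WT NaOH, 2.53 ± 0.57 in WT BA, 4.61 ± 1.04 in bpc NaOH and 5.84 ± 0.756 in bpc BA. BGLU18 (AT1G52400), a beta-glucosidase that frees ABA from its glucose ester, had 1.35 ± 0.265 RPKM in WT NaOH, 1.91 ± 0.22 in WT BA, 3.55 ± 1.52 in bpc NaOH and 3.81 ± 0.712 in bpc BA. BGLU7 (AT3G62740), of the same glycoside hydrolase family, had 16.4 ± 3.93 RPKM in WT NaOH, 19.7 ± 2.75 in WT BA, 31.1 ± 2.58 in bpc NaOH and 34.8 ± 1.29 in bpc BA. AT2G36690 (chromosome 2, 15379660 to 15382131, plus strand), a dioxygenase that uses 2-oxoglutarate and iron, had 7.24, 9.3 and 7.67 RPKM in WT NaOH, 1.97, 3.36 and 3.84 in WT BA, 12.8, 16.5 and 18.4 in bpc NaOH, and 6.12, 7.06 and 5.83 in bpc BA. The bpc BA values lay below the WT NaOH values.

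Primary metabolism contributed MLS and GolS4. MLS (AT5G03860; chromosome 5, 1032099 to 1034973, minus strand), the malate synthase of the glyoxylate cycle, by which seedlings turn stored lipid into sugar, had 5.78, 5.55 and 6.63 RPKM in WT NaOH, 4.22, 4.54 and 6.43 in WT BA, 11.7, 12.6 and 11.5 in bpc NaOH, and 13, 11.2 and 11.4 in bpc BA. GolS4 (AT1G60470; chromosome 1, 22278975 to 22280593, minus strand), a galactinol synthase, which begins the raffinose family of protective sugars, had 4.22, 7.28 and 5.33 RPKM in WT NaOH, 4.54, 6.14 and 5.91 in WT BA, 10.5, 12 and 14 in bpc NaOH, and 10.1, 14.7 and 14.5 in bpc BA. WT and bpc did not overlap in either. GolS1, a relative of GolS4, was just outside the conditions with a log2 difference of 0.79 with BA.

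Secreted, lipid-binding and sugar-binding proteins made up 10 members and held the most abundant ones. Lipid-transfer proteins were 3 of the 55 (5.45%), against 0.322% of the genes tested; these small proteins bind lipids and are mostly secreted. AT2G37870 (chromosome 2, 15859204 to 15859942, plus strand) had 2.75, 2.85 and 2.6 RPKM in WT NaOH, 3.14, 5.25 and 2.93 in WT BA, 14.2, 13.1 and 9.42 in bpc NaOH, and 11.8, 14.8 and 16.5 in bpc BA. AT3G53980 (chromosome 3, 19987562 to 19988463, minus strand) had 126, 129.9 and 79.9 RPKM in WT NaOH, 114, 143 and 135 in WT BA, 232, 239 and 139 in bpc NaOH, and 261, 263 and 217 in bpc BA, and its WT BA replicate 2 exceeded bpc NaOH replicate 3. AT4G33550 (chromosome 4, 16134366 to 16135134, plus strand) had 11, 11.3 and 11.1 RPKM in WT NaOH, 12.5, 11.1 and 11.7 in WT BA, 22, 17.6 and 22.1 in bpc NaOH, and 23.6, 20.6 and 21 in bpc BA, a tight set in which the genotypes did not overlap. The log2 differences were 1.96 with NaOH and 1.83 with BA for AT2G37870, 0.85 with NaOH and 0.92 with BA for AT3G53980 and 0.85 with NaOH and 0.85 with BA for AT4G33550.

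JAL22 (AT2G39310; chromosome 2, 16414034 to 16416845, minus strand), a jacalin-related lectin, which binds sugars, was the most abundant member. It had 214, 228 and 195 RPKM in WT NaOH, 160.3, 181 and 238 in WT BA, 406, 385 and 495 in bpc NaOH, and 412, 365 and 408 in bpc BA, a doubling in each treatment, with log2 differences of 1.01 with NaOH and 1.05 with BA. AT1G52100, a mannose-binding lectin gene, had 0.675 ± 0.273 RPKM in WT NaOH, 0.742 ± 0.298 in WT BA, 2.52 ± 0.388 in bpc NaOH and 2.58 ± 0.775 in bpc BA. AT2G05510 (chromosome 2, 2015624 to 2016772, plus strand), which encodes a glycine-rich protein, had 48.1, 83.3 and 57.5 RPKM in WT NaOH, 54.3, 53.2 and 96.4 in WT BA, 142, 186 and 279.6 in bpc NaOH, and 220.0, 182 and 277 in bpc BA. The lowest bpc value was 142 RPKM and the highest WT value 96.4 RPKM. AT5G61660, also glycine-rich, had 4.21 ± 0.463 RPKM in WT NaOH, 4.87 ± 2.22 in WT BA, 11.3 ± 0.853 in bpc NaOH and 8.47 ± 0.441 in bpc BA, but its RefSeq gene lies wholly over CYCP4;2 on the opposite strand (1293 bases, where the authors' values imply a counted length of 716 bases). CYCP4;2 had 5.19 RPKM in WT NaOH and 7.67 RPKM in bpc NaOH. The library kit marks strand, but no source used here says whether the counting did, so reads of the pair cannot be told apart.

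The genome has few embryo-specific ATS3-type genes, 4 among the genes tested, and 2 were members, a group picked out after the values were seen. AT5G62210 (chromosome 5, 24986294 to 24987811, minus strand) had 60.6, 38.8 and 46.1 RPKM in WT NaOH, 45.7, 40 and 33.6 in WT BA, 91.7, 67 and 96.2 in bpc NaOH, and 98, 78.6 and 71 in bpc BA. ATS3 (AT5G07190; chromosome 5, 2237474 to 2238720, plus strand) had 10.1, 7.85 and 9.09 RPKM in WT NaOH, 7.68, 9.17 and 7.03 in WT BA, 16.7, 15.6 and 20.2 in bpc NaOH, and 15.3, 14.9 and 15.5 in bpc BA. WT and bpc did not overlap in either gene, and the log2 differences were 0.81 with NaOH and 1.04 with BA for AT5G62210 and 0.92 with NaOH and 0.91 with BA for ATS3. AT1G70880, of the polyketide cyclase and lipid transport superfamily, had 8.71 ± 0.862 RPKM in WT NaOH, 9.48 ± 2.95 in WT BA, 19.1 ± 2.17 in bpc NaOH and 19.4 ± 1.93 in bpc BA. How reads that fit several close relatives were counted is not given, which bears on the lectin, glycine-rich and efflux carrier genes.

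Plastid proteins were represented by ELIP2 and AT2G27402. ELIP2 (AT4G14690; chromosome 4, 8418242 to 8419325, plus strand), an early light-induced protein that binds chlorophyll and protects against strong light, had 10.3, 6.81 and 6.17 RPKM in WT NaOH, 7.77, 12.2 and 9.42 in WT BA, 23.1, 18.1 and 18.8 in bpc NaOH, and 26, 24.8 and 21.7 in bpc BA. AT2G27402 (chromosome 2, 11722770 to 11724400, plus strand), named a plastid transcriptionally active protein in RefSeq, had 6.42, 5.53 and 3.56 RPKM in WT NaOH, 5.94, 5.8 and 5.69 in WT BA, 21.2, 28.7 and 17.9 in bpc NaOH, and 24, 30 and 18.7 in bpc BA. Its bpc mean was 4.37 times the WT mean with NaOH and 4.18 times with BA, with log2 differences of 2.03 with NaOH and 1.95 with BA. The 9 photosynthesis markers that could be tested had median log2 differences between bpc and WT of −0.24 with NaOH and −0.04 with BA.

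Transport and nutrient genes numbered 5. PHO2 (AT2G33770; chromosome 2, 14277558 to 14283113, minus strand), a ubiquitin-conjugating enzyme that limits phosphate uptake, had 25, 29.7 and 20.2 RPKM in WT NaOH, 15.4, 17.8 and 23 in WT BA, 38, 58.2 and 42.5 in bpc NaOH, and 29.9, 41.8 and 33.6 in bpc BA. WT NaOH replicate 2, at 29.7 RPKM, nearly reached the lowest bpc value, 29.9 RPKM in bpc BA. ATSDI1 (AT5G48850; chromosome 5, 19805437 to 19807853, minus strand), a gene induced by sulphur deficiency that restrains glucosinolate synthesis, had 16.6, 18.5 and 23.6 RPKM in WT NaOH, 8.5, 8.33 and 10.3 in WT BA, 36.8, 45.2 and 41.3 in bpc NaOH, and 16.5, 20.2 and 17.5 in bpc BA. Its bpc BA values overlapped the WT NaOH values. AT1G51090 (chromosome 1, 18932766 to 18934049, plus strand), a heavy-metal-associated domain protein, had 4.39, 5.37 and 5.44 RPKM in WT NaOH, 8.28, 13.5 and 16 in WT BA, 10, 8.9 and 15.1 in bpc NaOH, and 24.6, 29.6 and 26.6 in bpc BA. SWEET13 (AT5G50800; chromosome 5, 20665068 to 20667312, minus strand), a sucrose efflux carrier, had 2.81 ± 0.272 RPKM in WT NaOH, 2.1 ± 0.301 in WT BA, 5.88 ± 1.86 in bpc NaOH and 4.44 ± 0.396 in bpc BA. DTX1 (AT2G04040; chromosome 2, 1334270 to 1336550, minus strand), a MATE efflux carrier that exports toxic compounds, had 1.43 ± 0.643 RPKM in WT NaOH, 1.68 ± 0.333 in WT BA, 3.83 ± 1.04 in bpc NaOH and 4.02 ± 0.782 in bpc BA. Outside the conditions by a small margin were the sulfate transporter gene AST56, with log2 differences of 0.79 and 0.82, and the ABC transporter gene ABCG22, with 0.79 and 0.82; just inside were NAC100 (0.84 and 0.81), LBD25 (0.87 and 0.81) and AT5G62210 (0.81 and 1.04).

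Membrane and signalling proteins accounted for 8 members. PLC8 (AT3G47290; chromosome 3, 17420397 to 17424342, plus strand), of the phosphoinositide-specific phospholipase C family, had 0.918, 0.748 and 1.02 RPKM in WT NaOH, 0.352, 0.751 and 0.588 in WT BA, 2.69, 2.68 and 2.92 in bpc NaOH, and 2.59, 2.44 and 2.23 in bpc BA. AT1G19650, of the Sec14-like phosphatidylinositol transfer family, had 1.72 ± 0.473 RPKM in WT NaOH, 1.71 ± 0.227 in WT BA, 4.18 ± 0.27 in bpc NaOH and 4.48 ± 0.351 in bpc BA. Both act on or carry inositol lipids, and their genotypes did not overlap. ANNAT7 (AT5G10230; chromosome 5, 3209497 to 3211483, minus strand), an annexin, which binds membranes in a calcium-dependent way, had 16.2, 17.7 and 16.9 RPKM in WT NaOH, 22, 27.1 and 25.9 in WT BA, 31.8, 35.1 and 38.6 in bpc NaOH, and 48.7, 50 and 46.4 in bpc BA. Its libraries agreed closely within groups, and all 4 groups were separate. AT3G59450, a calcium-binding EF-hand gene, had 0.735 ± 0.202 RPKM in WT NaOH, 1.08 ± 0.61 in WT BA, 2.02 ± 0.669 in bpc NaOH and 2.68 ± 0.675 in bpc BA. RLP32 (AT3G05650), a receptor-like protein that senses a bacterial translation factor, had 0.84 ± 0.163 RPKM in WT NaOH, 0.994 ± 0.41 in WT BA, 2.2 ± 0.22 in bpc NaOH and 2.38 ± 0.166 in bpc BA. NHL12 (AT2G35960), of the NDR1/HIN1-like family, had 2.3 ± 0.14 RPKM in WT NaOH, 1.84 ± 0.532 in WT BA, 4.88 ± 0.853 in bpc NaOH and 3.95 ± 0.717 in bpc BA. AT5G59305, named a CLE-like protein in RefSeq, had 1.28 ± 0.874 RPKM in WT NaOH, 1.52 ± 0.264 in WT BA, 3.06 ± 0.23 in bpc NaOH and 3.85 ± 0.806 in bpc BA. AT3G14260, a LURP-one-like gene, had 3.02, 2.62 and 3.35 RPKM in WT NaOH, 0.542, 1.06 and 1.11 in WT BA, 4.34, 4.53 and 9.96 in bpc NaOH, and 1.8, 2.02 and 2.23 in bpc BA. It was lower with BA in both genotypes.

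Genes with no characterised product made up 5 members (9.09%), against 8.32% of the genes tested by the same word in the RefSeq product. AT1G16850 (chromosome 1, 5764807 to 5765798, minus strand) was the most abundant of them, with 21.3, 25.6 and 26.7 RPKM in WT NaOH, 15.3, 20.7 and 16.7 in WT BA, 44.1, 44.2 and 62.7 in bpc NaOH, and 45.8, 42.7 and 47 in bpc BA. AT4G15990 had 1.32 ± 0.53 RPKM in WT NaOH, 3.75 ± 1.86 in WT BA, 4.5 ± 1.92 in bpc NaOH and 9.92 ± 0.341 in bpc BA, and AT1G21260, which RefSeq marks as a pseudogene, had 0.736 ± 0.506 RPKM in WT NaOH, 0.401 ± 0.0516 in WT BA, 2.49 ± 0.3 in bpc NaOH and 2.35 ± 0.282 in bpc BA. AT1G47395 had 1.41 ± 0.781 RPKM in WT NaOH, 1.37 ± 1.02 in WT BA, 3.51 ± 0.905 in bpc NaOH and 4.81 ± 0.67 in bpc BA, on 2 to 12 reads in each WT library and 10 to 24 in each bpc library. AT5G59080 had 1.95 ± 0.46 RPKM in WT NaOH, 2.92 ± 0.503 in WT BA, 5 ± 1.57 in bpc NaOH and 6.99 ± 3.29 in bpc BA. Its RefSeq exons span 3570 bases and overlap the glycosyltransferase gene AT5G59070 on the opposite strand, but the length implied by the authors' values is 848 bases, so the overlap among the bases counted is not known. No member carried the words for peroxidases, glutathione S-transferases, kinases, proline-rich proteins, cell wall enzymes or defence proteins in its RefSeq product. The words for F-box, ubiquitin and zinc finger proteins were also absent, although PHO2 is a ubiquitin-conjugating enzyme that its RefSeq product does not name as such. Among the genes tested, the shares were 0.419% for peroxidases, 0.255% for glutathione S-transferases, 0.886% for defence proteins and 1.00% for proline-rich proteins. They were 1.48% for cell wall enzymes, 3.74% for the F-box, ubiquitin and zinc finger words and 5.34% for kinases. A missing word does not show that a family is missing, and with so few members the absence of these words says little.

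A BA response was called for a minority of the members. The shares called in limma were above those of all genes tested, but the 2 sets are not alike. Members had to reach a bpc mean of 2 RPKM, and the conditions favour genes with little spread within groups. Shares among genes of like level and spread were not compared. A response that was not called is not shown to be absent. In WT, 5 of 55 rose (9.09%) and 5 fell (9.09%) at adjusted p 0.05 in limma, where 3.85% of all genes tested rose and 4.83% fell. In bpc, 4 rose (7.27%) and 4 fell (7.27%), against 4.24% and 4.36% of all genes. The median log2 response of the members was 0.08 in WT and 0.09 in bpc, beside −0.05 and 0.00 for all genes tested. In the same libraries the 10 type-A response regulators, the direct targets of cytokinin, all rose, with median log2 responses of 3.54 in WT and 3.78 in bpc. The 2 BA comparisons share no library, but their tests share a spread estimated from all libraries together. Calls in WT and in bpc are therefore not independent. AT4G15990, for example, gained a call in WT when any bpc NaOH library was left out.

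The members that rose were PMAT2, AT1G51090, ANNAT7 and AT2G22590 in both genotypes and AT5G08250 in WT. PMAT2, the malonyltransferase, rose by log2 2.26 ± 0.24 in WT (SE, adjusted p = 4.1e-05) and 2.25 ± 0.24 in bpc (adjusted p = 4.4e-05). AT1G51090 rose by log2 1.19 ± 0.22 in WT (SE, adjusted p = 0.0043) and 1.24 ± 0.22 in bpc (adjusted p = 0.0033). The annexin gene ANNAT7 changed least of these, by log2 0.54 ± 0.11 in WT (SE, adjusted p = 0.0052) and 0.46 ± 0.11 in bpc (adjusted p = 0.015). AT2G22590, the glycosyltransferase, rose by log2 1.07 ± 0.25 in WT (SE, adjusted p = 0.014) and 1.00 ± 0.25 in bpc (adjusted p = 0.021). The P450 gene AT5G08250 had log2 responses of 0.73 ± 0.17 in WT (SE, adjusted p = 0.015) and 0.57 ± 0.17 in bpc (adjusted p = 0.059). In bpc it passed the test under 8 of the alternatives, at log2 0.54 to 0.57, among them the fit with WT BA replicate 1 rescaled (adjusted p 0.0348). AT4G15990, of no characterised product, missed the threshold in both genotypes, with log2 responses of 1.18 in WT (adjusted p = 0.0502) and 1.15 in bpc (adjusted p = 0.058). It passed in WT under 8 alternatives and in bpc under 6. These adjusted p-values are from limma over all 20776 genes, as are those that follow. The bpc call for ANNAT7 was lost without bpc NaOH replicate 1 (log2 0.39), bpc BA replicate 1 (0.45) or bpc BA replicate 2 (0.43). The bpc call for AT2G22590 was lost without bpc NaOH replicate 3 (0.87), bpc BA replicate 1 (0.96) or bpc BA replicate 2 (0.96). Its WT call was lost without WT BA replicate 2 (0.96) or replicate 3 (0.92). The WT call for AT5G08250 was lost without WT NaOH replicate 3 (0.60) or WT BA replicate 2 (0.56). Both AT2G22590 (adjusted p 0.063) and AT5G08250 (adjusted p 0.098) also lost their WT calls in limma when the 2 WT groups were fitted alone.

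The members that fell were ERF2, ATSDI1, AT2G36690 and AT3G14260 in both genotypes and BLH4 in WT. ERF2 had the largest fall, with log2 responses of −2.15 ± 0.19 in WT (SE, adjusted p = 1.2e-05) and −1.72 ± 0.19 in bpc (adjusted p = 6.6e-05). Mean ERF2 levels went from 12.5 to 2.41 RPKM in WT and from 23.2 to 6.60 RPKM in bpc. ATSDI1 responded by log2 −1.06 ± 0.14 in WT (SE, adjusted p = 0.00035) and −1.16 ± 0.14 in bpc (adjusted p = 0.00017), AT2G36690 by −1.30 ± 0.20 in WT (SE, adjusted p = 0.00097) and −1.25 ± 0.20 in bpc (adjusted p = 0.0014). AT3G14260 responded by log2 −1.34 ± 0.27 in WT (SE, adjusted p = 0.0062) and −1.33 ± 0.27 in bpc (adjusted p = 0.0064). BLH4, the homeodomain gene, had log2 responses of −1.13 ± 0.25 in WT (SE, adjusted p = 0.012) and −0.64 ± 0.25 in bpc (adjusted p = 0.17); its WT call was lost without WT BA replicate 1 (log2 −0.96). LBD25, the LOB-domain gene, did not pass, with log2 responses of −0.60 ± 0.25 in WT (SE, adjusted p = 0.19) and −0.67 ± 0.25 in bpc (adjusted p = 0.14).

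No member was called for a response to BA that differed between genotypes: 0 of 55 passed the interaction test in limma, 0 had an unadjusted p under 0.05, and 1 of 20776 genes passed in all (0.00481%). The interaction estimates ran from −0.51 to 0.53. The conditions keep genes with a difference of at least 0.8 in both treatments, which limits how large an interaction a member can have, so this count does not show that the responses are equal. At a false discovery rate under 0.05, the authors' deposited tables list 9 of the 55 members as higher and 7 as lower with BA in WT (8.99% and 9.84% of their genes). In bpc they list 8 of the 55 as higher and 7 as lower (10.6% and 13.3% of their genes). The share of members lowered in bpc was thus not above that of all genes there.

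**Figure D4:**
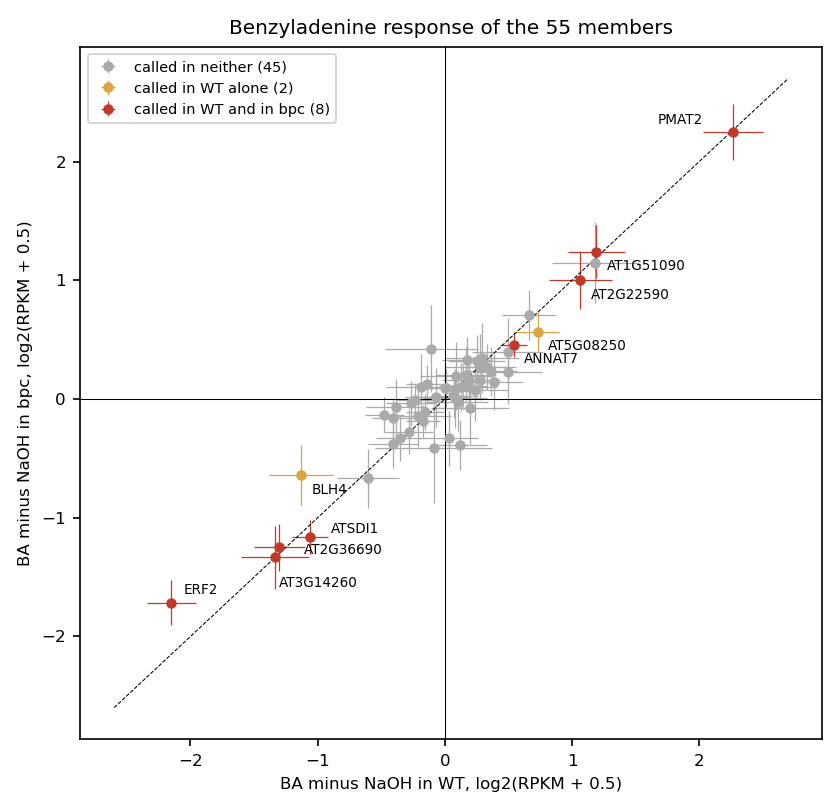
Log2 response to BA in WT (x axis) and in bpc (y axis) of the 55 members on the log2(RPKM + 0.5) scale, with SE bars from limma and a dashed line of equal response. Members that passed in both genotypes (8) are red, in WT alone (2) amber and in neither (45) grey; ERF2 at −2.15 and −1.72 and PMAT2 at 2.26 and 2.25 mark the ends.

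Of the 6 genes left out by name, 4 (KIN1, KIN2, RAB18 and LEA7) belong to a list of cold- and ABA-inducible protective genes; NADP-ME1 and HSFA2 do not. KIN1, a cold- and ABA-induced protective protein, had 68.9 ± 17.1 RPKM in WT NaOH and 279.6 ± 42.6 RPKM in bpc NaOH (SD, n = 3), and RAB18, a dehydrin, had 1.08 ± 0.921 and 12.9 ± 2.99 RPKM. HSFA2, a heat-shock factor, had 2.84 ± 1.06 and 11.4 ± 1.29 RPKM. Of the 13 genes of that list, 12 were tested and 7 were higher in bpc with NaOH and 7 with BA, where 0.91% and 1.29% of all genes were higher. In each treatment 4 of the 7 were the genes that had met the conditions on the same differences, so the count is no independent evidence. Among the other 8 tested, 3 were higher with NaOH (COR15A, RD29B and LEA4-5) and 3 with BA (COR15A, RD29A and LEA4-5), with median log2 differences of 0.57 and 0.75, beside 0.04 and 0.08 for all genes tested. In a fit of the NaOH libraries alone, 3 of the 12 were higher, where 26 of all genes were. With the replicate number added to that fit, 9 of the 12 were higher, where 390 of all genes were. Both counts include genes that had met the conditions, and the second fit was added after the data were seen. In the fit of all libraries, none of the 12 was lower at adjusted p 0.05, where 1.08% of all genes were lower with NaOH and 1.03% with BA. Of 16 tested ABA synthesis and signalling genes, 1 was higher in each treatment (RD26 with NaOH, HAI1 with BA), with medians of 0.24 and 0.21. Members described above as ABA- or stress-linked (HIS1-3, BGLU18, GolS4 and ELIP2) were higher in the same libraries, as the conditions require of every member. Whether they follow this list was not tested.

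The share of members with a GA run near the start was not above that of all promoters. In the window from 250 bases before to 50 bases after the start, GAGAGA on either strand was found in 12 of 55 members (21.8%) and in 28.8% of the 20595 tested genes with a promoter. The longer GAGAGAGA, each match of which also contains GAGAGA, was found in 2 members (3.64%), PI and AT1G26540, against 8.53%. The G-box CACGTG was in 5 members (9.09%) against 8.59%. ACGTGNC, the core of the ABA-response element, was in 8 (14.5%) against 11.4%; it can overlap a G-box, and HIS1-3, ATSDI1, SWEET13 and ATS3 were among the 8. In the 1000 bases before the start, the shares were 49.1% against 57.2% for GAGAGA, 10.9% against 14.6% for GAGAGAGA, 14.5% against 15.7% for CACGTG and 23.6% against 20.8% for ACGTGNC. These are counts of letters, with no test, and say nothing of binding.

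**Figure D5:**
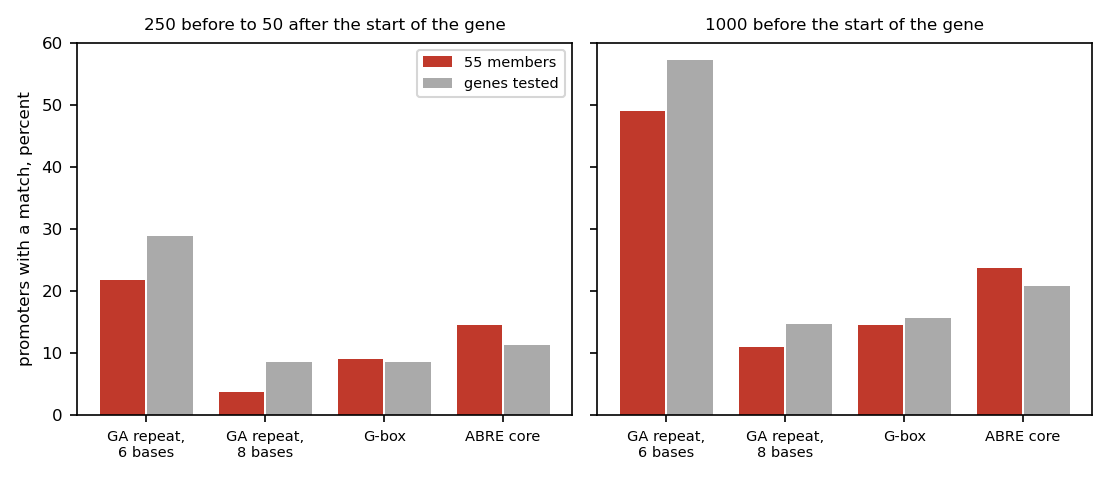
Share of promoters with at least 1 match on either strand (y axis, percent, from 0) for 4 motifs, in the 55 members (red) and in all genes tested (grey); the left panel covers 250 bases before to 50 after the start and the right panel the 1000 bases before it. The red GA-run bars are below the grey ones in both panels (21.8% against 28.8% for the run of 6 on the left).

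By position, 14, 13, 9, 4 and 15 members lie on chromosomes 1 to 5, or 25.5%, 23.6%, 16.4%, 7.27% and 27.3%, where the genes tested divide as 26.2%, 15.2%, 19.7%, 15.1% and 23.1%. The closest pair, ST2A and ATS3 on chromosome 5, is 61028 bases and 28 genes apart. The RefSeq exons of members had a median length of 1314 bases, against 1737 for all genes tested. The lengths implied by the authors' values were shorter than the RefSeq exons in 53 of the 55 members, with a median of 1120 bases, and equal in 2.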

How the data were processed

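RNA was sequenced in 12 root libraries, 3 in each of 4 groups taken from the sample titles. Per the labels' protocols, the libraries came from a stranded mRNA kit. The submitters' processing notes name edgeR 3.0, featureCounts, SAMtools 0.1.18, Bowtie 1.1.0, TopHat2 2.0.11 and FastQC, and the genome build TAIR10; strand use in counting is not stated there. The authors deposited RPKM values for 33602 genes. They also deposited 3 comparison tables of 19706 genes. Per the file headers these give log2 fold changes, log2 CPM, a likelihood-ratio score, a p-value and an FDR for each gene.

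The members and lists were chosen with earlier results of these data known, and some family words and all role groups were added after values were seen. A gene was tested when 3 or more libraries reached 0.5 RPKM, which kept 20776. Their log2(RPKM + 0.5) values were fitted with limma 3.58.1 in R 4.3.3, with 1 coefficient per group, an intensity trend and 8 residual degrees of freedom. P-values were adjusted over all genes by the Benjamini-Hochberg method and called under 0.05. The pseudocount makes the fold changes of low genes smaller. The limma fit was tested on simulated data. The rule for named genes took the 24 largest mean differences, the 5 smallest p-values rising and falling with BA in each genotype, the genes at the edge of the conditions, members of a fixed list, the 8 most abundant, transcription factors and families of 3 or more. The other 16 members are named, with their values known, to account for all 55. Coordinates, products and promoter sequences are from RefSeq TAIR10.1, since the deposited tables hold no coordinates; all 55 loci matched. Alternatives changed the pseudocount, filters, thresholds, scaling, fit and libraries. Leaving out both NaOH libraries numbered 3 and pairing the NaOH libraries by number were added after the data were seen. Same-numbered NaOH libraries of WT and bpc deviated together (correlations of 0.312, 0.372 and 0.63 across genes). So did WT NaOH replicate 1 with bpc NaOH replicate 2 (0.335) and WT NaOH replicate 2 with bpc NaOH replicate 1 (0.189). The values therefore set apart only the NaOH libraries numbered 3 and do not pair the others by number, and no label states a pairing. Same-numbered BA libraries did not deviate together (0.059, −0.052 and 0.035). The members' log2 differences are the same with or without pairing by number.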

Additional observations from a re-analysis of the deposited data

How the results depend on the processing

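The number of members depends on the thresholds that define them. It was 151 with a difference of at least 0.6, 31 with at least 1 and 32 with a bpc mean of at least 5 RPKM. It was 80 and 44 with pseudocounts of 0.1 and 1, 67 with a bpc mean of at least 1 RPKM, 48 with WT BA replicate 1 rescaled, 45 with median-of-ratios scaling and 43 with quantile normalization, of which 42 were members. Leaving out 1 library gave 45 (without WT BA replicate 1) to 67 (without WT BA replicate 2) genes. Leaving out both NaOH libraries numbered 3 gave 53, of which 44 were members.

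Members raised by BA in WT numbered 3 when the 2 WT groups were fitted alone, and 4 to 6 when 1 library was left out. Those lowered in WT numbered 4 to 6. Those raised in bpc numbered 2 (without bpc BA replicate 1 or 2) to 7 (without WT BA replicate 2), and those lowered in bpc 4 in each such fit. With the replicate number as a block the counts were 5 raised and 5 lowered in WT and 4 raised and 5 lowered in bpc, where LBD25 was gained (log2 −0.67). The numbers did not pair NaOH with BA libraries: same-numbered correlations were 0.159, −0.275 and −0.248 in WT and 0.083, 0.1 and 0.109 in bpc. Over all genes the block moved the calls from 799 to 864 and from 1004 to 1156 in WT and from 880 to 946 and from 905 to 1011 in bpc. Among named genes, no called BA response changed sign under the alternatives run. No genotype difference did either, but the conditions fix that sign when libraries are left out or the pseudocount is changed. Nothing is read from it. Among 1794 gene and setting pairs of the BA responses, 13 lost and 26 gained a call. Only a response called in the fit of all libraries could lose a call, so 1794 is no base for the losses. All losses fell on ANNAT7, AT2G22590, AT5G08250 and BLH4. The cause of these changes was not tested. A further 24 BA responses, none of them called, changed sign in 58 pairs, and none was called after the change. Leaving out 1 library, their log2 values ran from −0.50 to 0.41 for LBD26 in WT, −0.034 to 0.35 for AT2G27402 in WT, −0.061 to 0.28 for AT2G27402 in bpc, −0.19 to 0.31 for AT2G05510 in WT, −0.033 to 0.45 for AT2G05510 in bpc, −0.14 to 0.015 for AT1G21260 in bpc, −0.0202 to 0.33 for SNG1 in WT and −0.35 to 0.32 for SNG1 in bpc. They ran from −0.52 to 0.30 for AT1G47395 in WT, −0.13 to 0.23 for AT1G52100 in WT, −0.13 to 0.23 for AT1G52100 in bpc, −0.20 to 0.36 for PI in bpc, −0.22 to 0.031 for AT1G16850 in bpc, −0.10 to 0.18 for AT1G19650 in WT, −0.071 to 0.44 for DTX1 in WT and −0.14 to 0.19 for DTX1 in bpc. In the remaining genes they ran from −0.17 to 0.19 for GolS4 in WT, −0.0079 to 0.26 for GolS4 in bpc, −0.026 to 0.65 for AT5G59305 in WT, −0.20 to 0.065 for AT5G62210 in bpc, −0.036 to 0.37 for ST2A in WT, −0.13 to 0.42 for AGL15 in WT, −0.12 to 0.051 for AGL15 in bpc and −0.024 to 0.14 for AT4G33550 in bpc. Without both NaOH libraries numbered 3 the values were 0.41 for LBD26 in WT, −0.034 for AT2G27402 in WT, −0.0502 for AT2G27402 in bpc, 0.0047 for AT1G21260 in bpc, 0.32 for SNG1 in bpc, −0.10 for AT1G52100 in bpc, 0.031 for AT1G16850 in bpc, −0.10 for AT1G19650 in WT, −0.071 for DTX1 in WT, −0.14 for DTX1 in bpc, −0.017 for GolS4 in WT, 0.062 for AT5G62210 in bpc and 0.015 for AGL15 in bpc. They were −0.000565 for AT1G52100 in bpc with a pseudocount of 0.1 and −0.000139 for GolS4 in WT with a pseudocount of 1. The fit of the NaOH libraries alone called 26 genes higher and 54 lower in bpc, with 3 of the cold- and ABA-inducible list higher, and adding the replicate number as a block gave 390 and 451, against 189 and 225 in the fit of all libraries. Under 10 reads, a member's WT level is known only roughly.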
